A study of Mus musculus with 9 samples.

Results

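Transcripts of 10 genes that mark microglia, the resident macrophages of the retina, were followed in bulk RNA-seq of mouse retinas that lack the TET enzymes. The genes were chosen by name as established markers: the complement C1q subunit genes C1qa, C1qb and C1qc, the receptor genes Cx3cr1, Csf1r and P2ry12, the surface protein gene Tmem119, and Aif1, Cd68 and Tyrobp. All 10 were found among the 55487 genes of the deposited table, and all 10 were among the 21330 genes that reached at least 0.5 CPM (reads on a gene scaled to a fixed library total) in at least 3 of the 9 libraries and were tested.

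Microglia derive from yolk sac progenitors and enter the retina from outside, whereas the neurons and Müller glia of the retina are made by retinal progenitors. Microglia read neuronal state through Cx3cr1, the receptor of the neuronal chemokine fractalkine, and depend for survival on Csf1r, the receptor of the cytokines encoded by Csf1 and Il34. In the nervous system they are a main source of C1q, the recognition protein that starts the classical complement pathway and tags synapses and debris for removal.

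All retinas were collected at postnatal day 21 (P21) from mice described in the labels as C57 BL/6J. The Cre- controls carried no Cre transgene and came from Cre- breeders. The tHet retinas were triple heterozygous for floxed Tet1, Tet2 and Tet3 and carried the Chx10::Cre-GFP transgene, and in the Tet tcKO retinas Tet1, Tet2 and Tet3 were each floxed on both copies, with the same transgene. Cre+ animals were in-crossed, so a difference between Cre- and either other genotype cannot be told apart from a difference between breeding lines. The Chx10 promoter is active in retinal progenitors, which do not give rise to microglia. Each genotype had 3 libraries, and each library pooled the retinas of 2 animals, so replicates within a genotype were separate pools.

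The libraries held between 9627927 and 21108256 reads counted on genes, so that 1 read was worth 0.0474 to 0.104 CPM. A single ribosomal RNA gene, CT010467.1, took 28.7% of the counted reads in Tet tcKO replicate 3 and 3.72% in tHet replicate 3, and at most 0.226% in the other 7 libraries. In those 2 libraries every other gene is therefore listed at a lower CPM, and the main values of the 10 genes that this moves are given with CT010467.1 left out of the total as well. Of the targeted genes, Tet3 transcripts fell in Tet tcKO against Cre- by 0.99 on the log2 scale (SE 0.25, limma adjusted p = 0.0174), from 213 to 268 CPM in Cre- to 99.2 to 152 CPM in Tet tcKO. Tet1 and Tet2, counted over the whole genes, were at 0.22 (adjusted p = 0.808) and 0.25 (adjusted p = 0.793), so these counts alone do not check the labels. The labelled tissue matched its markers, since Gnat1, the transducin subunit of rods, stood at 5217 to 6853 CPM in Cre- and at 258 to 1543 CPM in Tet tcKO.

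The 3 C1q genes lie side by side on the minus strand of chromosome 4 in GRCm38 (GENCODE M21 positions), within 18675 bases from 136880129 to 136898803. C1qb (136880129 to 136886187) comes first on the map, followed after 3616 bases by C1qc (136889804 to 136893065) and after a further 2851 bases by C1qa (136895917 to 136898803), and each has 3 exons. The upstream sequences of C1qb and C1qc are shown because transcripts of these neighbours varied together from library to library, as described below. Both are RefSeq promoter sequences in GRCm38.p6, minus strand, read 5′ to 3′, and the capitals mark the PU box GAGGAA or, on the other strand, TTCCTC, a core that the myeloid factor PU.1 (Spi1) is known to bind.

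C1qb, chr4:136886201-136886450: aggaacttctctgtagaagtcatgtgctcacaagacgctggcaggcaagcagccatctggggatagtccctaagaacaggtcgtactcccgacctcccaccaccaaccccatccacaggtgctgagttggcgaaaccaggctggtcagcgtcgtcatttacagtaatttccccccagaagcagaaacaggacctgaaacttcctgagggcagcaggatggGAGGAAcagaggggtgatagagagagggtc

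C1qc, chr4:136893066-136893164: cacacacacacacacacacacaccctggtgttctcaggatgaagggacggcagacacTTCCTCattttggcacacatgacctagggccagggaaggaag

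The C1qb stretch is the 250 bases before the RefSeq start, with the PU box 30 bases before it. For C1qc the 99 bases shown are the part of that window outside annotated exons, and the PU box, on the opposite strand, began 193 bases before the RefSeq start. Promoter windows of this length were found for 6 of the 10 genes (P2ry12, C1qb, C1qc, Cx3cr1, Cd68 and Aif1), and 4 of them (C1qb, C1qc, Cd68 and Aif1) held GAGGAA on either strand. The same 6 letters occurred in 7639 of 32851 RefSeq promoter windows (23.25%). Exons also reached into other windows. The Aif1 match began 7 bases before the RefSeq start, past the 234 bases of its window that lie ahead of annotated exons. The Cx3cr1 window opened within an annotated exon, with 0 bases ahead of it. A match describes the letters only.

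The first comparison asked how microglial transcripts differed between Tet tcKO retinas and Cre- controls. Cx3cr1 rose 2.48-fold on the log2(CPM + 0.5) scale, and it was the only one of the 10 genes that passed an absolute log2 fold change of 1 with an adjusted p under 0.01, the thresholds by which a gene is said to be called here. C1qa was higher in every Tet tcKO library than in every Cre- library, but its 2.32-fold difference did not pass the test. C1qb and C1qc, whose proteins assemble with that of C1qa, overlapped between the genotypes, as did Csf1r, Aif1, Cd68, Tmem119 and Tyrobp. The count of 1 called gene of 10 stands beside 3.60% of all tested genes called in this comparison, either direction. At an adjusted p under 0.05 without a fold threshold the count was again 1 of 10, beside 6.50% of all tested genes.

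**Figure D1:**
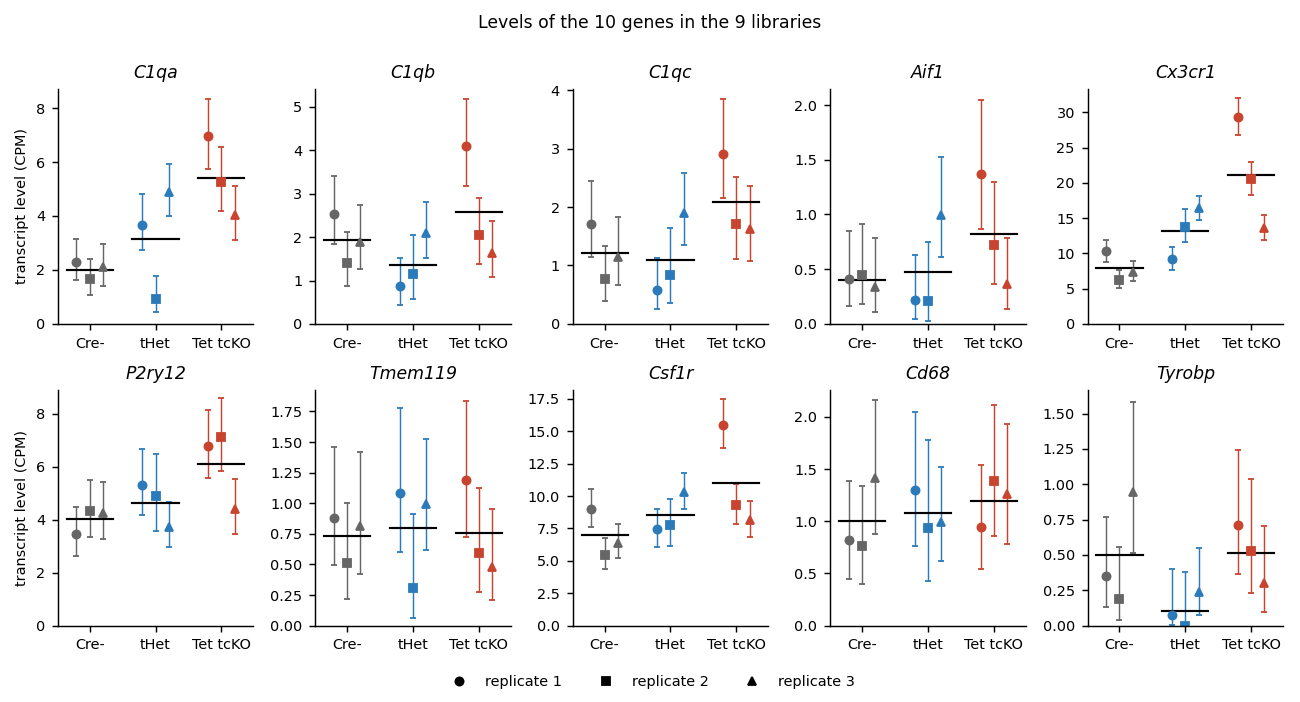
Transcript level of each of the 10 genes in CPM (vertical axes, from 0, scaled per gene) in the 3 genotypes (horizontal axis). Each point is 1 library, its bar the 95% exact Poisson interval of the read count, and the horizontal line the genotype mean. Cx3cr1 lies at 13.6 to 29.3 CPM in Tet tcKO and 6.30 to 10.3 CPM in Cre-. Genes with few reads, such as Aif1 and Tyrobp, have wide intervals, which overlap between many but not all libraries of different genotypes.

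Cx3cr1 encodes the fractalkine receptor, which keeps microglia in contact with neurons. Its level was 10.3, 6.30 and 7.36 CPM in Cre- replicates 1, 2 and 3, 9.22, 13.8 and 16.4 CPM in tHet, and 29.3, 20.5 and 13.6 CPM in Tet tcKO, from 99 to 494 reads per library. The gene spans chromosome 9 from 119901616 to 120069879 on the minus strand (GRCm38), and 78 of its 4505 exonic bases overlap Gm33858 on the other strand, whose reads cannot be told apart there because the strand setting of the counting is not given in the sources used here. No Cre- library reached the level of any Tet tcKO library, and Tet tcKO replicate 3, the library with the large CT010467.1 share, was the lowest of its genotype and lay within the tHet range. The mean was 21.1 ± 7.88 CPM in Tet tcKO and 7.99 ± 2.07 CPM in Cre- (SD, n = 3 each), and the fitted log2 fold change was 1.31 (SE 0.30, limma adjusted p = 0.00935). The call was made under 10 of the 20 alternative settings, with adjusted p from 0.000948 to 0.101, and an adjusted p under 0.05 was met under 19 of them. The exception was the fit without Tet tcKO replicate 1, the library with the highest Cx3cr1 level, where the log2 fold change was 1.05 and the adjusted p 0.101.

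With CT010467.1 left out of the total, Cx3cr1 stood at 29.4, 20.5 and 19.1 CPM in Tet tcKO, above all tHet libraries (at most 17.0 CPM) as well as all Cre- libraries. The log2 fold change against Cre- was then 1.47 (SE 0.26, adjusted p = 0.0038). The median of all tested genes moved in the same fit from 0.0012 to 0.14.

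C1qa encodes the A chain of C1q. Its level was 2.30, 1.65 and 2.09 CPM in Cre- replicates 1 to 3, 3.67, 0.935 and 4.88 CPM in tHet, and 6.95, 5.27 and 4.03 CPM in Tet tcKO, from 9 to 117 reads. All Tet tcKO libraries lay above all Cre- libraries, while the tHet libraries spanned both, with replicate 2 the lowest of the 9. The mean was 5.42 ± 1.46 CPM in Tet tcKO and 2.01 ± 0.328 CPM in Cre- (SD, n = 3 each). The log2 fold change was 1.21 with SE 0.41 and a limma adjusted p of 0.0897, which passes the fold threshold but neither adjusted p limit, 0.01 or 0.05. Over the 20 alternatives its adjusted p ran from 0.0179 to 0.359 and was under 0.05 in 5, among them the fit of only the 6 libraries compared (0.0197) and that without tHet replicate 2 (0.0227).

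C1qb encodes the B chain. Its level was 2.53, 1.4 and 1.89 CPM in Cre-, 0.864, 1.14 and 2.08 CPM in tHet, and 4.10, 2.04 and 1.63 CPM in Tet tcKO. Only Tet tcKO replicate 1 exceeded every Cre- library, and the log2 fold change was 0.28 (SE 0.37, adjusted p = 0.858). C1qc, the C chain gene, was at 1.71, 0.763 and 1.15 CPM in Cre-, 0.576, 0.831 and 1.90 CPM in tHet, and 2.91, 1.71 and 1.63 CPM in Tet tcKO. Its Tet tcKO and Cre- ranges met only through Cre- replicate 1, and the log2 fold change was 0.60 (SE 0.37, adjusted p = 0.50). The difference between the fold changes of C1qa and of its neighbours was not tested.

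Csf1r, which encodes the receptor microglia need to survive, was at 9.01, 5.47 and 6.41 CPM in Cre-, 7.42, 7.79 and 10.3 CPM in tHet, and 15.5, 9.29 and 8.13 CPM in Tet tcKO. Tet tcKO replicate 1 stood alone at the top, and the other 2 Tet tcKO libraries lay among the tHet values. With CT010467.1 left out of the totals, Tet tcKO replicate 3 stood at 11.4 CPM, above the highest tHet library (10.7 CPM). The log2 fold change against Cre- was 0.59 (SE 0.30, adjusted p = 0.351). Of its 5774 exonic bases 873 overlap Hmgxb3 on the opposite strand, so this value carries the same doubt over strand. P2ry12, the purine receptor by which resting microglia steer their processes toward injured cells, was at 3.47, 4.33 and 4.25 CPM in Cre-, 5.33, 4.88 and 3.74 CPM in tHet, and 6.77, 7.12 and 4.40 CPM in Tet tcKO. All Tet tcKO libraries were above all Cre- libraries, the closest pair being 4.40 against 4.33 CPM, and the log2 fold change was 0.52 (SE 0.30, adjusted p = 0.457). Tmem119, a surface protein that separates microglia from other macrophages, had 0.509 to 0.883 CPM in Cre-, 0.312 to 1.08 CPM in tHet and 0.482 to 1.19 CPM in Tet tcKO. The 3 genotypes overlapped throughout, with a log2 fold change of -0.0046 (SE 0.35, adjusted p = 0.998) whose sign changed with the scaling, to 0.082 with CT010467.1 left out.

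The remaining 3 genes had few reads. Aif1, which encodes the actin-binding protein IBA1 used to stain microglia, had 2 to 23 reads per library, with 0.338 to 0.445 CPM in Cre- and 1.37, 0.725 and 0.361 CPM in Tet tcKO (log2 fold change 0.48, SE 0.36, adjusted p = 0.639). Cd68, a lysosomal glycoprotein of phagocytes, had 9 to 21 reads, with 0.763 to 1.42 CPM in Cre- and 0.95 to 1.38 CPM in Tet tcKO (log2 fold change 0.20, SE 0.32, adjusted p = 0.897). Tyrobp, the adaptor through which TREM2 signals, had 0 to 14 reads, with 0.191 to 0.945 CPM in Cre- and 0.301 to 0.713 CPM in Tet tcKO (log2 fold change 0.08, SE 0.33, adjusted p = 0.972). For these genes 3 reads correspond to 0.142 to 0.312 CPM, and the exact Poisson interval of Aif1 in Cre- replicate 3, from 0.11 to 0.788 CPM, shows how wide the counting error was. Such intervals cover counting error only.

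Over the 10 genes the median log2 fold change in Tet tcKO against Cre- was 0.50, beside 0.0012 over all tested genes. The fitted change was positive for 9 of the 10 genes, beside 50.1% of all tested genes, and Tmem119 was the exception. Without Tet tcKO replicate 1 it was positive for 6 of the 8 genes then tested, with a median of 0.36. The genes tended to vary together between libraries, as described below, so they are not separate observations. All 3 Tet tcKO libraries were above all 3 Cre- libraries for 3 of the 10 genes (Cx3cr1, C1qa and P2ry12), beside 10.0% of all tested genes. An unadjusted p under 0.05 was reached by 2 of the 10 (Cx3cr1 and C1qa), beside 16.1%. With CT010467.1 left out of the total, the Tet tcKO libraries lay above the Cre- libraries for 6 of the 10 genes, with C1qc, Aif1 and Csf1r added, while the share of all tested genes rose to 23.3%. In bulk retina, fewer or more microglia and a change in RNA per microglial cell cannot be told apart. Neither can be told apart from a change in the amount of other RNA, since CPM is a share of the library total. The paper reports more IBA1-stained microglia in Tet tcKO retinas, a count of cells and not of transcripts.

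**Figure D2:**
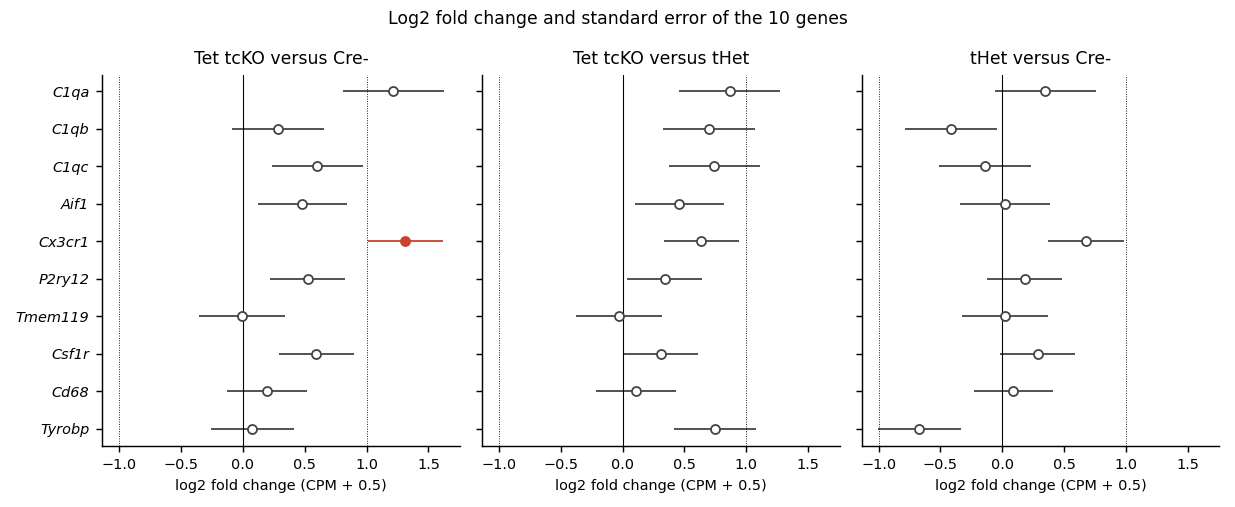
Fitted log2 fold change of the 10 genes on the log2(CPM + 0.5) scale (horizontal axes) in the 3 comparisons, with 1 standard error either side; dotted lines mark an absolute change of 1 and the filled point the 1 called gene, Cx3cr1 in Tet tcKO versus Cre- at 1.31. Against tHet the Tet tcKO changes of all genes but Tmem119 were above 0 and none was called.

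The comparison of Tet tcKO with tHet asked the same question with both groups carrying the Cre transgene. None of the 10 genes was called, beside 3.00% of all tested genes, and none had an adjusted p under 0.05, beside 5.95%. An unadjusted p under 0.05 was reached by 3 of the 10 (C1qa, Cx3cr1 and Tyrobp), beside 17.5%. The fitted change of C1qa was 0.87 (SE 0.41, adjusted p = 0.276), which ran from 0.29 without tHet replicate 2 (adjusted p = 0.823) to 1.25 without tHet replicate 3 (adjusted p = 0.0502). Cx3cr1 was at 0.64 (SE 0.30, adjusted p = 0.283), C1qc at 0.74 (SE 0.37, adjusted p = 0.307) and C1qb at 0.70 (SE 0.37, adjusted p = 0.35). DESeq2 and edgeR's quasi-likelihood test on the recovered reads likewise put none of them under an adjusted p of 0.05. The median over the 10 genes was 0.55, beside -0.06 over all tested genes, and the change was positive for 9 of the 10, beside 44.3%.

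Only for Tyrobp did all Tet tcKO libraries lie above all tHet libraries, 1 of 10 genes beside 7.35% of all tested genes. Its tHet libraries held 1, 0 and 5 reads and its Tet tcKO libraries 12, 8 and 5, and the fitted log2 fold change of 0.75 (SE 0.33, adjusted p = 0.240) moved between 0.45 and 2.04 with the pseudocount, filter, tool and libraries used. With CT010467.1 left out of the total, 4 of the 10 genes (C1qa, Cx3cr1, P2ry12 and Tyrobp) had all Tet tcKO libraries above all tHet libraries, beside 18.9% of all tested genes. In that fit Cx3cr1 had a log2 fold change of 0.78 (SE 0.26, adjusted p = 0.0899) and C1qa one of 1.00 (SE 0.42, adjusted p = 0.168). The 3 Tet tcKO libraries enter both this comparison and the one with Cre-, so the results are not independent.

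The comparison of tHet with Cre- asked what the heterozygous alleles and the transgene line did to the same genes. None of the 10 was called, beside 0.0422% of all tested genes, none had an adjusted p under 0.05, beside 0.0938%, and none had all tHet libraries above all Cre- libraries, beside 5.78%. Cx3cr1 had the largest change, 0.68 (SE 0.30, unadjusted p = 0.0382 and adjusted p = 1.00 in limma), the 1 gene of 10 with an unadjusted p under 0.05, beside 4.55%. Its tHet libraries at 9.22 to 16.4 CPM overlapped Cre- only through Cre- replicate 1 at 10.3 CPM. C1qb was at -0.42 (SE 0.37) and Tyrobp at -0.67 (SE 0.33), also with adjusted p of 1.00. In edgeR and DESeq2 too, no gene of the 10 had an adjusted p under 0.05 here. The median over the 10 genes was 0.06, the same as over all tested genes, and 7 of the 10 changes were positive, beside 58.2%.

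**Figure D3:**
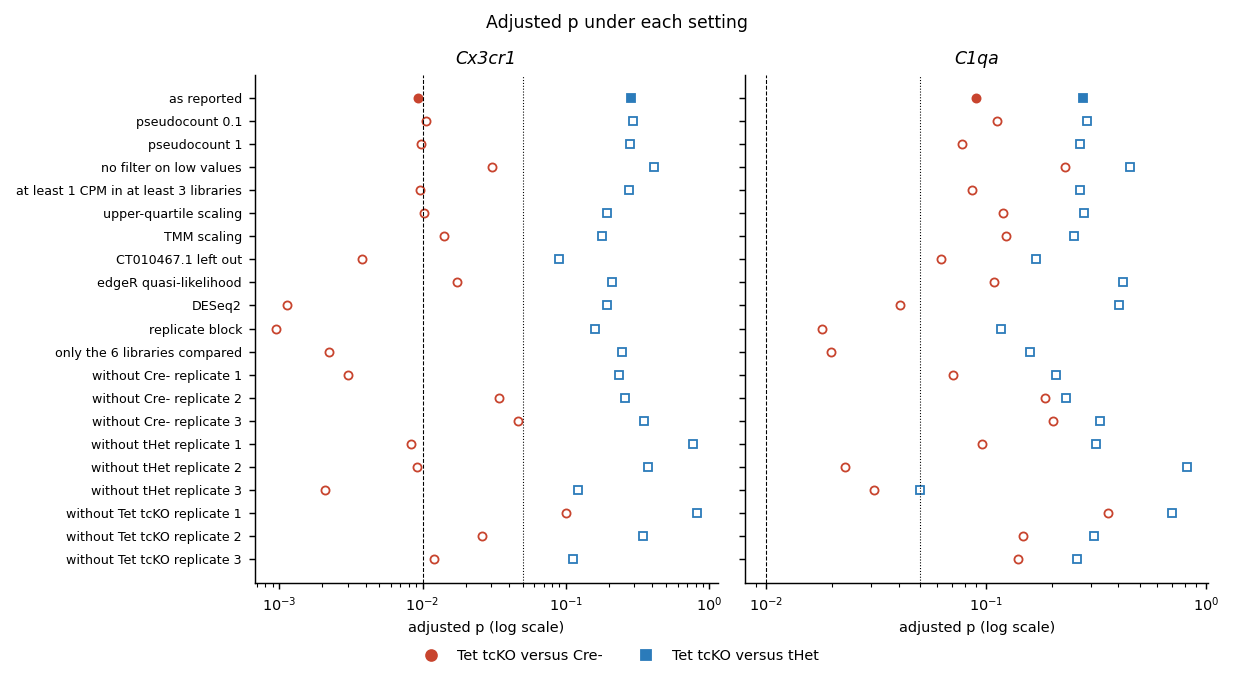
Adjusted p (log scale) of Cx3cr1 and C1qa in both comparisons of Tet tcKO under the reported fit (filled) and the 20 alternatives (open), with lines at 0.01 (dashed) and 0.05 (dotted). Cx3cr1 against Cre- stays under 0.05 except without Tet tcKO replicate 1 (0.101), whereas C1qa is under 0.05 in 5 alternatives, and neither gene is under 0.05 against tHet.

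Levels per length of exon allow the genes to be set beside each other. In Cre- retinas C1qa stood highest at 1.94 ± 0.315 CPM per kilobase (SD, n = 3), followed by C1qb at 1.78 ± 0.522, Cx3cr1 at 1.77 ± 0.460, P2ry12 at 1.58 ± 0.186 and Csf1r at 1.21 ± 0.317. Cd68, Tyrobp and C1qc followed at 0.797, 0.744 and 0.625 CPM per kilobase, and Tmem119 and Aif1 were lowest at 0.317 and 0.260. Each gene overlapped the next in this order, other than C1qc, whose Cre- libraries all lay above those of Tmem119. In Tet tcKO retinas C1qa (5.21 ± 1.41) and Cx3cr1 (4.69 ± 1.75) again led and overlapped each other, and every library of Cx3cr1 was above every library of the next gene, P2ry12 (2.39 ± 0.582). C1qb stood just below P2ry12 at 2.38 ± 1.22 CPM per kilobase.

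Ratios of 2 genes within a library do not depend on its total. The ratio of Cx3cr1 to Csf1r CPM was 1.14, 1.15 and 1.15 in Cre-, 1.24, 1.77 and 1.59 in tHet, and 1.89, 2.21 and 1.67 in Tet tcKO, so the Cre- libraries sat below all others. The ratio of C1qa to C1qb was 0.907, 1.18 and 1.11 in Cre-, 4.25, 0.818 and 2.34 in tHet, and 1.70, 2.58 and 2.48 in Tet tcKO. Cx3cr1 alone supplied 27.6% to 32.4% of the reads of the 10 genes in Cre-, 31.0% to 44.8% in tHet and 38.0% to 42.0% in Tet tcKO. These ratios were picked after the values were seen and were not tested.

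Within genotypes the 10 genes tended to be high or low in the same library. As deviations from the genotype mean of log2(CPM + 0.5) over the 9 libraries, 36 of the 45 gene pairs correlated positively, with a median Pearson r of 0.511. The neighbours C1qb and C1qc, whose upstream sequences are given above, had r = 0.951, and C1qb also followed Csf1r (0.965) and Cx3cr1 (0.934), which lie on other chromosomes. C1qa followed Tmem119 most closely (0.906), and Cd68 against Cx3cr1 had the lowest r of all pairs (-0.467). These values share library totals within a library and carry no test. Tet tcKO replicate 1 was above its genotype mean for 9 of the 10 genes and tHet replicate 3 for 8, whereas Tet tcKO replicate 3 was above it for 1 gene only, Cd68. These deviations and correlations use totals that include CT010467.1, whose large share lowers every other gene in Tet tcKO replicate 3. With it left out, Tet tcKO replicate 3 lay above Tet tcKO replicate 2 for C1qa, C1qb, C1qc, Tmem119, Csf1r and Cd68. It lay below that library for Cx3cr1, P2ry12, Aif1 and Tyrobp. The correlations are not given without CT010467.1. The lowest single deviation was C1qa in tHet replicate 2, at -1.15.

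Across all 9 libraries, the genes whose levels followed the mean profile of the 10 most closely were Rcn1 (Pearson r = 0.988), Foxo4 (0.986), Tshz2 (0.985), Chd3 (0.981), Arhgap30 (0.976), Tsc22d4 (0.975), Ppm1g (0.971) and Mettl7a1 (0.966), of 17422 other tested genes with a mean of at least 1 CPM. Without the 2 libraries farthest from the median of the profile, r was between 0.935 and 0.997 for these 8 genes. Their mean levels ran from 1.00 CPM for Arhgap30 to 464 CPM for Chd3 in Cre-, and all 8 had higher means in Tet tcKO, where Arhgap30 was at 2.14 CPM and Chd3 at 818 CPM. The points share genotype, depth and library total, with CT010467.1 included, and the genes were picked for this likeness, so no test is given.

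**Figure D4:**
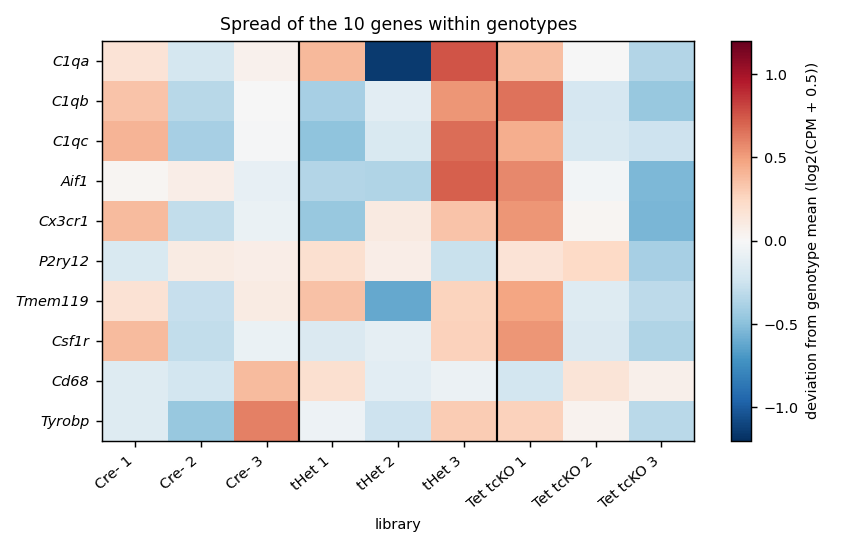
Deviation of each library from its genotype mean in log2(CPM + 0.5) (colour scale, red above and blue below) for the 10 genes (rows) and 9 libraries (columns). Tet tcKO replicate 1 is red for all genes but Cd68, Tet tcKO replicate 3 is blue for all but Cd68, and the darkest cell is C1qa in tHet replicate 2 at -1.15. The totals include CT010467.1, whose large share lowers every other gene in Tet tcKO replicate 3.

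The summed level of the 10 genes was 31.8, 21.8 and 26.7 CPM in Cre-, 29.7, 30.9 and 42.5 CPM in tHet, and 69.8, 49.2 and 35.8 CPM in Tet tcKO. With CT010467.1 left out of the total, Tet tcKO replicate 3 rose to 50.3 CPM and all Tet tcKO libraries were above all others.

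Other microglial genes were read for comparison, 21 of the 23 listed being tested. Against Cre- none of the 21 rose and 1 fell at an adjusted p under 0.05, and against tHet none rose and 2 fell. The genes that fell were Gas6, a ligand that bridges dying cells to phagocytes and is also made outside microglia, and Mertk, its receptor, which the retinal pigment epithelium also uses. Gas6 was at 96.6 to 107 CPM in Cre- and 48.7 to 69.1 CPM in Tet tcKO (log2 fold change -0.75, SE 0.21, adjusted p = 0.0309). Mertk was at 9.73 to 19.5 CPM in Cre- and 6.35 to 8.43 CPM in Tet tcKO (-0.90, SE 0.29, adjusted p = 0.0763), and passed against tHet only (-1.03, SE 0.29, adjusted p = 0.0384). The median of the 21 genes against Cre- was 0.49, beside 0.0012 over all tested genes, and 17 of the 21 changes were positive. Spi1, the myeloid factor itself, held 43 reads over all 9 libraries and was not tested.

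The list of microglial activation genes, 11 of 20 tested, had 2 that rose and 1 that fell against Cre-. Apoe, a lipid carrier that Müller glia also make in large amounts, rose from 204 to 236 CPM in Cre- to 428 to 550 CPM in Tet tcKO (log2 fold change 1.17, SE 0.25, adjusted p = 0.00538). Axl, a phagocytic receptor, rose from 7.19 to 9.60 CPM to 12.8 to 17.8 CPM (0.90, SE 0.26, adjusted p = 0.0392), while Spp1, the secreted protein osteopontin, fell from 9.03 to 13 CPM to 2.71 to 5.34 CPM (-1.39, SE 0.32, adjusted p = 0.00947). The Spp1 mean of 10.7 CPM in Cre- was above those of Cx3cr1 (7.99 CPM) and Csf1r (6.96 CPM). Which cells made the Axl and Spp1 transcripts was not tested. The median of the 11 genes against Cre- was 0.14. Against tHet, Apoe alone passed (1.17, adjusted p = 0.00636). The inflammatory genes Tnf, Ccl4, Ccl3 and Il1b had 2, 1, 8 and 30 reads over all 9 libraries and were not tested.

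Of 31 other complement genes 22 were tested, and 1 rose and none fell against Cre-. It was Serping1, the inhibitor of the C1r and C1s proteases that C1q activates, at 1.21 to 1.89 CPM in Cre-, 1.56 to 3.36 CPM in tHet and 3.67 to 7.05 CPM in Tet tcKO (log2 fold change 1.45, SE 0.35, adjusted p = 0.0122). All Tet tcKO libraries were above all libraries of both other genotypes, but against tHet the adjusted p was 0.0684 (1.11, SE 0.35). The protease gene C1ra was at 0.589 to 0.636 CPM in Cre- and 0.659 to 1.60 CPM in Tet tcKO (0.48, adjusted p = 0.548), and C3, on which the pathways converge, was at 1.88 to 3.85 CPM and 0.843 to 2.97 CPM (-0.62, adjusted p = 0.529). The median of the 22 genes was 0.25. These C1ra and C3 values are given for their place beside C1q, outside the rule for naming genes.

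Among genes for ligands and signals that microglia receive, 10 of 11 were tested, and 1 rose and none fell against Cre-. Csf1, a ligand of Csf1r, was at 1.59 to 2.99 CPM in Cre-, 2.66 to 5.71 CPM in tHet and 6.56 to 9.69 CPM in Tet tcKO, every Tet tcKO library being above every other. The log2 fold change was 1.65 against Cre- (SE 0.33, adjusted p = 0.00314), a call made in 15 of the 20 alternatives, and 0.91 against tHet (SE 0.33, adjusted p = 0.134). The other Csf1r ligand gene, Il34, was at 2.09 to 3.12 CPM in Cre- and 1.08 to 2.37 CPM in Tet tcKO (-0.50, adjusted p = 0.561). The fractalkine gene Cx3cl1, which encodes the ligand of Cx3cr1, was at 42.1 to 46.4 CPM in Cre- and 22.5 to 41.4 CPM in Tet tcKO (-0.41, adjusted p = 0.463). Il34 and Cx3cl1 are named for their receptors, outside the rule.

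**Figure D5:**
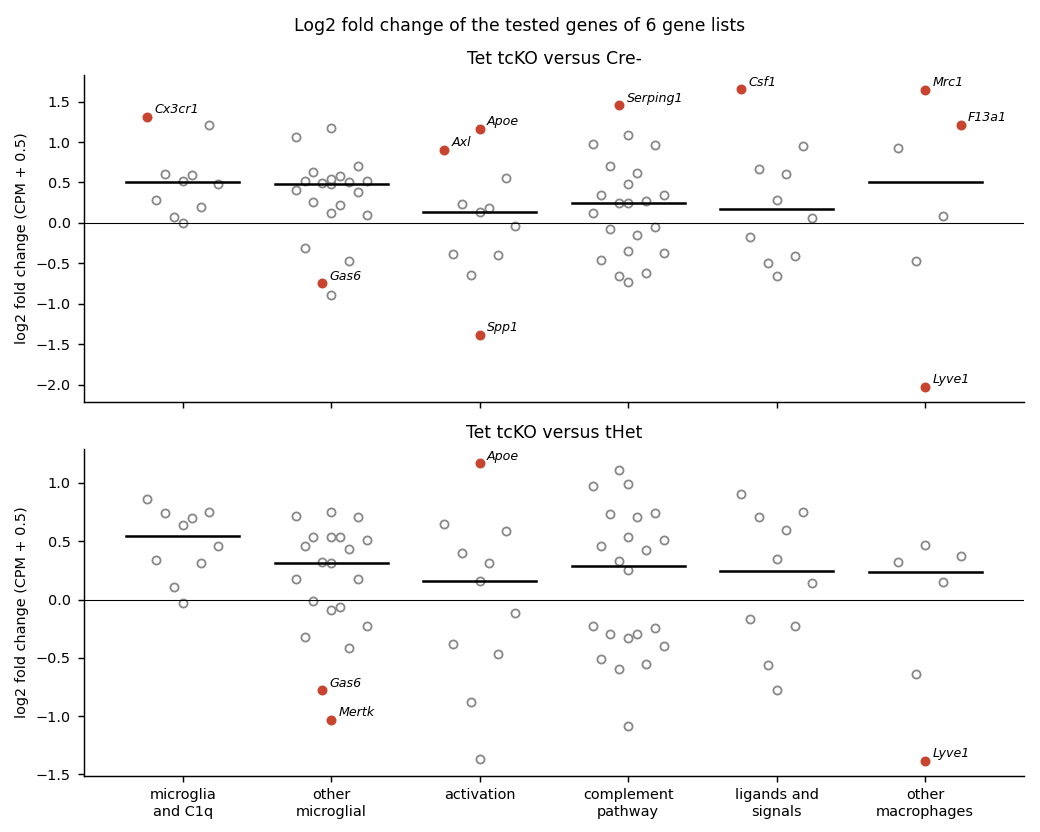
Log2 fold change on the log2(CPM + 0.5) scale (vertical axes) of every tested gene in 6 lists (horizontal axis), for Tet tcKO against Cre- (upper) and against tHet (lower). Filled named points have an adjusted p under 0.05 and black lines are list medians; for the 10 microglia and C1q genes the medians are 0.50 and 0.55, and Cx3cr1 is the filled point, against Cre- only.

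Markers of other cells that a retina can hold also moved. Of 12 genes of perivascular and monocyte-derived macrophages, which share Cx3cr1 and Csf1r with microglia, 6 were tested, and 2 rose and 1 fell against Cre-. Mrc1, the mannose receptor, was at 0.127 to 0.353 CPM in Cre-, 0.831 to 1.80 CPM in tHet and 1.02 to 3.56 CPM in Tet tcKO (1.65, SE 0.38, adjusted p = 0.00902), and F13a1, a clotting factor subunit of macrophages, at 0.127 to 0.540 CPM, 0.623 to 1.52 CPM and 1.12 to 2.02 CPM (1.21, SE 0.34, adjusted p = 0.0358). For both genes the tHet libraries already lay wholly above the Cre- libraries. Lyve1, a hyaluronan receptor of perivascular macrophages and lymphatic vessels, went the other way, from 21.3 to 25.7 CPM in Cre- to 1.84 to 11.7 CPM in Tet tcKO (-2.03, SE 0.41, adjusted p = 0.00291). Its mean of 23.7 CPM in Cre- was far above that of Mrc1 (0.205 CPM) and above that of Cx3cr1 (7.99 CPM). Which cells made the Lyve1 transcripts was not tested. The summed level of the 12 genes was 25.8 to 28.2 CPM in Cre-, 16.9 to 22.3 CPM in tHet and 10.2 to 17.8 CPM in Tet tcKO. Without Lyve1, the other 11 genes summed to 2.18 to 4.52 CPM in Cre-, 4.26 to 6.16 CPM in tHet and 3.79 to 8.31 CPM in Tet tcKO, and to 5.32 to 8.32 CPM in Tet tcKO with CT010467.1 left out of the totals. The ranges of the whole list thus ran in the direction of Lyve1, and those without it did not. Cd163 reached at most 0.475 CPM and Pf4 at most 0.132 CPM in any library, each being at 0 in at least 1 library. The 6 tested genes had a median log2 fold change of 0.50 against Cre-, with 4 of them positive. The part of these cells in the Cx3cr1 result was not tested.

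Of 10 blood cell genes 5 were tested and 2 fell against Cre-, the hemoglobin genes Hbb-bs (-1.41, adjusted p = 0.0238) and Hba-a1 (-1.51, adjusted p = 0.0301). Their list summed to 33.0 to 52.0 CPM in Cre-, 26.0 to 53.0 CPM in tHet and 16.0 to 33.0 CPM in Tet tcKO, and the neutrophil gene Ly6g had 0 reads. All 8 endothelial and pericyte genes were tested, and Flt1, a receptor of vascular growth factors, fell against Cre- (-1.89, adjusted p = 0.00016). Kdr, another such receptor, was at 124 to 162 CPM in Cre-, 97.0 to 128 CPM in tHet and 164 to 244 CPM in Tet tcKO. It rose against tHet (0.81, SE 0.22, adjusted p = 0.0288) and was at 0.55 against Cre- (adjusted p = 0.179). The 8 genes had a median log2 fold change of 0.40 against Cre-, 5 of them positive. They summed to 319 to 361 CPM in Cre-, 283 to 366 CPM in tHet and 283 to 422 CPM in Tet tcKO, the last becoming 398 to 422 CPM with CT010467.1 left out, above all Cre- (320 to 362 CPM) and tHet (284 to 381 CPM) libraries. Kdr, Flt1 and Rgs5 held most of this sum, with means of 137, 116 and 69.2 CPM in Cre-. In Tet tcKO their means were 202, 32.9 and 111 CPM, so the sum mainly follows these genes. The endothelial genes Pecam1, Cdh5 and Cldn5 had far lower levels, with means of 8.89, 1.78 and 1.64 CPM in Cre-. In Tet tcKO their means were 7.15, 3.86 and 3.65 CPM, and none of them had an adjusted p under 0.05. Which cells made the Flt1 and Kdr transcripts was not tested. Rgs5 is named for its share, and Pecam1, Cdh5 and Cldn5 for their levels beside Flt1 and Kdr, all outside the rule. All 7 Müller glia genes were tested, of which Apoe rose and Rlbp1 and Glul fell. Their median log2 fold change against Cre- was 0.12, with 4 of the 7 positive. None of the 5 astrocyte and gliosis genes passed at an adjusted p under 0.05. Against Cre- their median was 0.75, with 4 of the 5 positive and 3 at an unadjusted limma p under 0.05. Gfap, the filament protein of reactive glia, was at 22.5 to 40.8 CPM in Cre-, 42.2 to 180 CPM in tHet and 34.9 to 113 CPM in Tet tcKO (0.96, SE 0.44, adjusted p = 0.271). Its highest libraries, tHet replicate 3 and Tet tcKO replicate 1, were also the highest of their genotypes for Cx3cr1. In Cre- this did not hold, since Gfap was highest in replicate 3 (40.8 CPM) and Cx3cr1 in replicate 1 (10.3 CPM). A relation of Gfap and Cx3cr1 was not tested.

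Among genes of retinal neurons, the cone genes Gnat2 and Opn1sw rose and the rod genes Gnat1 and Pde6a fell, against Cre- as against tHet. Tet tcKO replicate 1 was the library with the least Gnat1 (258 CPM) and the most Cx3cr1 (29.3 CPM). Replicate 2 had the most Gnat1 of its genotype (1543 CPM), with Cx3cr1 at 20.5 CPM. Replicate 3 lay between them in Gnat1 (659 CPM) but had the lowest Cx3cr1 of the genotype. That level was 13.6 CPM, or 19.1 CPM with CT010467.1 left out of the total. A relation of the 2 genes was not tested. Of 7 pigment epithelium and ciliary body genes 6 were tested, and Optc rose (3.40, adjusted p = 4.64e-05) while Rpe65 and Ttr fell against Cre-. Optc, whose product is a proteoglycan of the vitreous, was also higher in tHet than in Cre- (3.91, adjusted p = 0.000312) and was at -0.51 in Tet tcKO against tHet (adjusted p = 0.643). Tyr, the tyrosinase of pigment cells, fell against tHet (-1.90, SE 0.43, adjusted p = 0.00893) and was at -0.48 against Cre- (adjusted p = 0.74). The list summed to 29.5 to 132 CPM in Cre-, 130 to 206 CPM in tHet and 54.3 to 109 CPM in Tet tcKO. The part of these cell types in the levels of the 10 genes was not tested.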

How the data were processed

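Bulk RNA-seq of P21 retinas covered Cre-, tHet and Tet tcKO, with 3 libraries per genotype grouped by their labels. The authors depleted ribosomal RNA, made stranded libraries, trimmed reads (Trim Galore 0.6.7), aligned them to mm10 (STAR 2.7.0f) and counted them on genes (HTSeq 0.11.2, per the submitters' processing notes); annotation release and strand setting are not given in the sources used here. The authors deposited CPM, counts scaled by each library's total, and edgeR fold changes and p-values, which were not used. All CPM were whole multiples of 1 read (100%). No per-sample column was left unmapped.

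In R 4.3.3, limma 3.58.1 (lmFit, eBayes with trend) was fitted to log2(CPM + 0.5) of all 9 libraries. It covered the 21330 genes that reached 0.5 CPM in 3 or more libraries, two-sided, with Benjamini-Hochberg adjustment over all of them. A call required an adjusted p under 0.01 and a log2 fold change of 1 or more in size. The exact permutation test of 3 libraries against 3 cannot go below p = 0.1 and was not used. Alternatives were other pseudocounts, filters and scalings, CT010467.1 left out of the total, edgeR 4.0.16 and DESeq2 1.42.0 on the recovered reads, a replicate block, only the 6 libraries compared, and each library left out. In simulated data with 200 genes changed by a log2 fold change of 2 in Tet tcKO versus Cre-, limma called 121, edgeR 116 and DESeq2 134, with 1, 1 and 4 false calls among 21069 genes. The simulation used 1 common mean per gene, without the uneven CT010467.1 share. Its change of 2 was larger than that of any of the 10 genes against Cre- (at most 1.31). It therefore does not give the power for the 10 genes. The counts of every pair of replicates differed beyond sampling noise (chi-square per degree of freedom 15.1 or more).

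The genes named were the 10 markers, up to 4 genes per list with the smallest adjusted p under 0.05 in either Tet tcKO comparison (or, where none passed, the 2 with the highest mean CPM), the 8 genes most like the 10, and Tet1 to Tet3. The other lists were of microglial, activation, complement, ligand, macrophage, blood, vessel, Müller glia, astrocyte, neuron and pigment epithelium genes. The 10 genes and all lists were chosen with earlier results of these data known. Some genes of these lists are not reported here. Positions are from GENCODE M21. Plots used Python 3.11.15 and matplotlib 3.10.9.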

Additional observations from a re-analysis of the deposited data

How the results depend on the processing

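Each of the 10 genes was refitted under 20 alternatives, 11 that change the processing and 9 that leave out a library; Aif1, Tmem119 and Tyrobp fell below the filter in some and have no value there. Against Cre-, the number of the 10 genes called was 1 and became 0 with a pseudocount of 0.1, no filter on low values, upper-quartile scaling, TMM scaling and edgeR's quasi-likelihood test, and 0 to 1 when 1 library was left out. The number with an adjusted p under 0.05 was 1, and 2 (Cx3cr1 and C1qa) with DESeq2, the replicate block and only the 6 libraries compared, and 0 to 2 when 1 library was left out. It was 0 without Tet tcKO replicate 1, and 2 without tHet replicate 2 or 3. None of the 10 was called or had an adjusted p under 0.05 against tHet, or in tHet against Cre-, in any alternative. Whether replicate numbers pair the libraries was not settled. Deviations of same-numbered libraries correlated at -0.35 to 0.56 (mean 0.11), and those of differently numbered ones at -0.57 to 0.50 (mean -0.05). A library was closest to its own number in 9 of 18 tries. The block raised the calls over all tested genes against Cre- from 768 to 1127. It changed no call of the 10, with C1qa at a limma adjusted p of 0.0179 against Cre-.

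Directions changed for these log2 fold changes. Tmem119 against Cre- became 0.0019 with a pseudocount of 1, 0.082 with CT010467.1 left out, 0.012 in edgeR and 0.000994 in DESeq2, and -0.24 to 0.15 with a library left out. Against tHet it became 0.047 with CT010467.1 left out and -0.33 to 0.15 with a library left out, and in tHet against Cre- -0.012 with a pseudocount of 0.1, -0.000681 with TMM scaling and -0.15 to 0.33 with a library left out. Aif1 in tHet against Cre- became -0.066 with a pseudocount of 0.1. With a library left out, the ranges that crossed 0 in Tet tcKO against Cre- were -0.044 to 0.51 for C1qb, -0.15 to 0.24 for Tyrobp and -0.057 to 0.45 for Vim. In tHet against Cre- they were -0.031 to 0.92 for C1qa, -0.47 to 0.10 for C1qc, -0.027 to 0.21 for Aif1 and -0.024 to 0.28 for Cd68. Against tHet they were -0.078 to 0.63 for Mrc1, -1.14 to 0.064 for Hba-a1, -0.12 to 0.38 for Vim and -0.83 to 0.34 for Gfap. The causes were not tested. At an adjusted p under 0.05 against Cre-, Csf1, Apoe and Lyve1 passed in all 20 alternatives, Spp1 and Mrc1 in 18, Serping1 in 17, Axl and Gas6 in 14 and F13a1 in 13. Without Tet tcKO replicate 1 the count fell from 3 to 1 for activation genes, from 3 to 1 for other macrophages, and from 1 to 0 for complement and for other microglial genes. With DESeq2 it was 5 for complement, 4 for signals and 4 for other microglial genes, and blood cell genes ran from 0 to 4. The replicate block gave 5 complement and 4 signal genes against tHet, where the reported fit gave 0. Depth limits Aif1, Tmem119, Cd68 and Tyrobp most, at 0 to 23 reads per library.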
